A study of Drosophila melanogaster with 3 samples.

Results

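The 5992 peaks described here are weak, distal and recurrent candidate sites of a tagged Drosophila melanogaster transcription factor. They were present in the pooled list of the study, which holds peaks and background, but missed its reproducibility cut. Each summit, the position of highest enrichment in a peak, was farther than 500 bp from the transcription start site (TSS) of any annotated gene. Each also had a summit within 200 bp in the list of every one of 3 replicates. The pooled list held 30000 peaks. Of these, 5724 formed the set that passed the authors' irreproducible discovery rate (IDR) threshold. Of 17371 distal peaks outside that set, 5992 (34.5%) met the replicate rule, 6465 had a summit in 2 replicates, 4271 in 1 and 643 in none. The 5992 are called recurrent peaks below, the other 11379 non-recurrent peaks, and the 2728 distal members of the thresholded set distal IDR peaks.

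The study was chromatin immunoprecipitation with sequencing (ChIP-seq) of the protein of CG13296, named Prdm13 in the annotation, in 1 group of 3 biological replicates. The material was whole embryos, male and female together, 6 to 18 hours old, of a transgenic line that stably carries CG13296 fused at its C terminus to green fluorescent protein (GFP). Per the labels the chromatin was sonicated to 200 to 800 bp, and the lists are on genome build dm6. The age is that of the source name, since a separate age field holds an impossible number of hours. There was no other genotype, treatment or stage, and 1 control file was shared by the replicates. Whole embryos pool all tissues, so a weak site in many cells and a strong site in few cells cannot be told apart. A description field calls the libraries input controls, against the assay title, the antibody field and the deposited derivation records, which place them on the immunoprecipitated side. The sources used here give no read numbers, and the depth behind each peak is unknown.

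Prdm13 belongs to the PRDM family, whose proteins join a PR/SET domain to zinc fingers and act mostly as transcriptional regulators. In vertebrates Prdm13 is known for specifying inhibitory neurons of the dorsal spinal cord and the retina. Distal sites of such factors often lie in introns and between genes, where enhancers are found.

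The sequences under 6 of the recurrent peaks show the words that the sequence results below turn on. They are 201 bases centred on the summit, plus strand, from the RefSeq release 6 genome. Capitals mark any of the 10 leading 6-base and 10 leading 8-base words found at these summits, on either strand. The peaks were taken in order of pooled signal among the named peaks with 2 or more such words, so their content is an illustration, not a test. The windows lie at chr3R:22503730-22503930 (intron of Octbeta1R, an octopamine receptor gene), chrX:3025598-3025798 (intron of kirre, which encodes an adhesion protein of muscle founder cells), chrX:8493596-8493796 (intron of CG33181), chr2L:12509575-12509775 (intron of bun, a TSC22-family regulator gene), chrX:8777189-8777389 (intron of Lim1, a LIM-homeodomain factor gene) and chr3L:6777751-6777951 (intergenic, with the protein-coding TSS of vvl, a POU-domain factor gene of trachea and neurons, nearest).
Octbeta1R: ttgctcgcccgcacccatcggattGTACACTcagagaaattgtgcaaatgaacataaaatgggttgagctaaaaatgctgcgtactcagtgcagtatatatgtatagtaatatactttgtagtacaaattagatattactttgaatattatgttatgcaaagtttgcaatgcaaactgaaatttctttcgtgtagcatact
kirre: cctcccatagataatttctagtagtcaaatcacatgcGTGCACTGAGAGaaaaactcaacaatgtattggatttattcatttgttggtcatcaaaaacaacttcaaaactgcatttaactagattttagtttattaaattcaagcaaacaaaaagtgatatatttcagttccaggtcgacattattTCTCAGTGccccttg
CG33181: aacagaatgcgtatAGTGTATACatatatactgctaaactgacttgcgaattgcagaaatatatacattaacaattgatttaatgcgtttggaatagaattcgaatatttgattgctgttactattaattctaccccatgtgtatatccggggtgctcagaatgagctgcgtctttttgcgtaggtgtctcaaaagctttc
bun: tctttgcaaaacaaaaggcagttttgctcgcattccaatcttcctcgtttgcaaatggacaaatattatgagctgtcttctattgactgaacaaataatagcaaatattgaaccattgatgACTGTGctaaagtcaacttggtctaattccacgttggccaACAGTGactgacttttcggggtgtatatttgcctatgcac
Lim1: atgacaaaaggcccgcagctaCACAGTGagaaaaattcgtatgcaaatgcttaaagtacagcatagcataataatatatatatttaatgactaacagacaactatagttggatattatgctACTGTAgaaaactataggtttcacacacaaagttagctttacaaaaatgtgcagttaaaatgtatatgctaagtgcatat
vvl: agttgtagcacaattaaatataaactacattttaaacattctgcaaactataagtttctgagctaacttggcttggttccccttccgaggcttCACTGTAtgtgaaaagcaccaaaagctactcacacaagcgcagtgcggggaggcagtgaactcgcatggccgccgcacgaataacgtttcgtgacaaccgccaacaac

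In strength the recurrent peaks spread over nearly the whole range under the cut. Their pooled signal value, the authors' own measure of peak strength, ran between 44.6 and 188.05 with a median of 105.6. Non-recurrent peaks had a median of 58.2 and distal IDR peaks one of 290. The deposited −log10 q-value, which is higher for surer peaks, had a median of 1.79 in recurrent peaks, with a lowest value of 0.392. Its median was 0.642 in non-recurrent peaks, and it was 4.08, the highest value in the pooled list, at every distal IDR peak. That value was also reached by 124 recurrent peaks (2.07%) and 8 non-recurrent peaks. Recurrent peaks may thus include background. Because the rule used both the pooled list and the replicate lists, these values describe the selection and were not tested. In the pooled list they ranked between 5726 and 29800, with a median of 11705. In the lists of replicates 1, 2 and 3 their median ranks were 13051.5, 13409.5 and 13592.5. The replicate lists thus placed a typical recurrent peak lower than the pooled list did. The nearest replicate summit lay a median of 35, 32 and 23 bp from the pooled summit in replicates 1, 2 and 3. Of distal bases, 6.67%, 6.55% and 6.28% lie within 200 bp of a summit of replicates 1, 2 and 3, and 2.36% lie within that distance in each of the 3. The pooled list was derived from the alignments of all 3 replicates. A pooled summit therefore shares reads with the replicate summits, and these shares of bases are not a measure of chance for recurrent peaks.

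Few of these peaks were strong in any single replicate. Only 419, 441 and 364 were among the 5724 peaks of highest signal in replicates 1, 2 and 3, and 26 were in all 3, while 4972 (83.0%) were in none. Across the 5992 peaks, Spearman's rho of the ranks was 0.30 between replicates 1 and 2, 0.35 between 1 and 3 and 0.32 between 2 and 3. Peaks are not independent replicates and share their libraries, so these values are a description. The rule also left out the thresholded set, which limits the range of ranks, so they do not measure the agreement of whole replicate lists. Replicates supported 72.0% (replicate 1), 61.6% (replicate 2) and 68.9% (replicate 3) of all sub-threshold distal peaks.

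**Figure D1:**
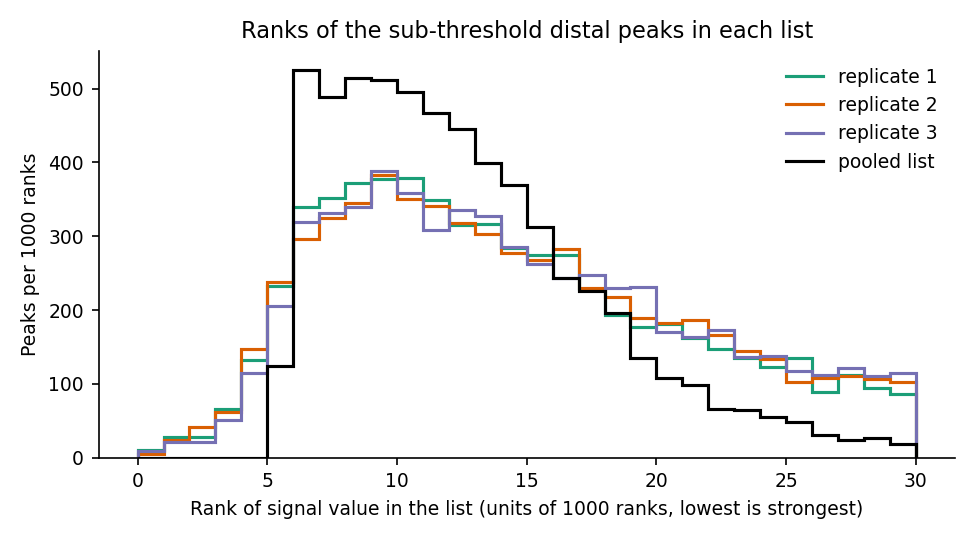
Number of recurrent peaks per 1000 ranks of signal (vertical axis) against rank (horizontal axis, in units of 1000 ranks), for the pooled list and each replicate's list. The pooled ranks begin at 5726, and the replicate ranks are spread more widely, with medians of 13051.5, 13409.5 and 13592.5 in replicates 1, 2 and 3.

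The recurrent peak of highest pooled signal lay in an intron of CG14073 (3L, 18817567 to 18818006), with a signal of 188.05 and ranks of 4904, 5536 and 9783 in replicates 1, 2 and 3. The next lay between genes near lncRNA:CR45404 (3L, 11286499 to 11286938) and ranked 4183, 6530 and 9514. The peak in the intron of Octbeta1R (3R, 22503610 to 22504049, sequence above) ranked 5239, 11972 and 6781. All 3 were weaker in at least 1 replicate than their pooled rank. An intergenic peak 861 bp upstream of Phb2, which encodes a prohibitin of the mitochondrial inner membrane (2R, 18818386 to 18818825), ranked 6382, 6448 and 5218. An intron of how, an RNA-binding protein gene of muscle and tendon cells (3R, 22046205 to 22046644), held a peak of ranks 7092, 10252 and 4531. The kirre peak (X, 3025478 to 3025917, sequence above) ranked 6619, 8501 and 5697. The next peak, in an intron shared by Hr3, an ecdysone-responsive nuclear receptor gene, CG46321 and CG12912 (2R, 10225714 to 10226153), ranked 25577, 5774 and 3522, so replicate 1 placed it far below the others. The rest of the 10 highest lay in an exon of lncRNA:CR44619 and in introns of CG33181 and CG32365.

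At the thresholds of the rule, the lowest distal IDR peak, in an intron of shot, had a signal of 188.11, just above the 188.05 of the highest recurrent peak. The highest non-recurrent peak (186.2, with the TSS of CG42780 nearest) had its nearest replicate 2 summit 688 bp away. The recurrent peak nearest a TSS was in an intron of Gfat1 at 501 bp, and an intergenic peak 500 bp from the TSS of CG15529 fell outside. Peaks in bun, near lncRNA:CR44315 and in osp had replicate summits at exactly 200 bp, in replicates 1, 2 and 3, and peaks with a replicate summit at 201 bp fell outside. The lowest recurrent signals were 44.57 in an intron of mgl and 44.60 near lncRNA:CR44315 and in CG46467 and Glut4EF, and 45.1 in introns of CG2162 and brat.

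A small number of recurrent peaks stood on the shoulder of a stronger one. In 229 (3.82%) the matched summit of at least 1 replicate was nearer to an IDR summit than to the recurrent peak, and in 14 this was so in every replicate. The recurrent peaks whose worst replicate rank was best were of this kind: those near CG9743 and CG13321 and in Psc, a Polycomb group gene, and NFAT had replicate ranks between 316 and 1199, with an IDR summit 200 to 203 bp away. Their pooled ranks were 16747 to 24397. The fifth, between genes 1081 bp upstream of ph-d, another Polycomb group gene (X, 2123890 to 2124409), was different. It ranked 1000, 892 and 1686 in replicates 1, 2 and 3 with its own summits 62, 42 and 17 bp away, and 19964 in the pooled list, with an IDR summit at 235 bp. In all, 5077 (84.7%) had 3 replicate summits that were each nearest to the recurrent peak.

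Recurrent peaks lay mostly in introns and were rare in coding sequence. Introns held 4071 (67.9%, 95% interval 66.7 to 69.1), against 45.6% of bases farther than 500 bp from every TSS, a ratio of 1.49 (exact binomial test, adjusted p = 1.99e-264). Coding sequence held 68 (1.13%, 0.882 to 1.44) against 15.1% of those bases, a ratio of 0.0749 (exact binomial test, adjusted p = 1.21e-317). Intergenic sequence held 24.9% of recurrent peaks against 31.5% of bases (ratio 0.792), and 3' UTRs held 3.15% against 5.85% (0.539). The small classes of 5' UTR (87 peaks, ratio 1.61) and other exons, mostly of non-coding genes (82 peaks, ratio 1.44), were above their share of bases. All 6 classes passed the threshold (100%), 3 higher (50%) and 3 lower (50%). The test counts each peak as independent, although some lie close together, and its p-values measure the spread over peaks, not over embryos. The pattern was not particular to recurrent peaks. Sub-threshold distal peaks with a summit in no replicate had 61.0% in introns (ratio 1.34) and 2.80% in coding sequence (0.185). Among peaks farther than 1000 bp from every TSS only introns were higher, and 5' UTRs (1.24, adjusted p = 0.192, exact) and other exons (1.29, adjusted p = 0.15, exact) no longer passed. The 5' UTR call was also lost, at a ratio of 1.06, when introns were assigned before exons.

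The share in coding sequence moved with recurrence and with signal. It was 1.13% in recurrent peaks, 2.39% in non-recurrent peaks and 0.477% in distal IDR peaks. Within recurrent peaks it was 1.67%, 1.60%, 0.601% and 0.668% in 4 groups of equal size, from lowest to highest pooled signal. Recurrence and signal are linked by the rule, and the differences between these sets were not tested.

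**Figure D2:**
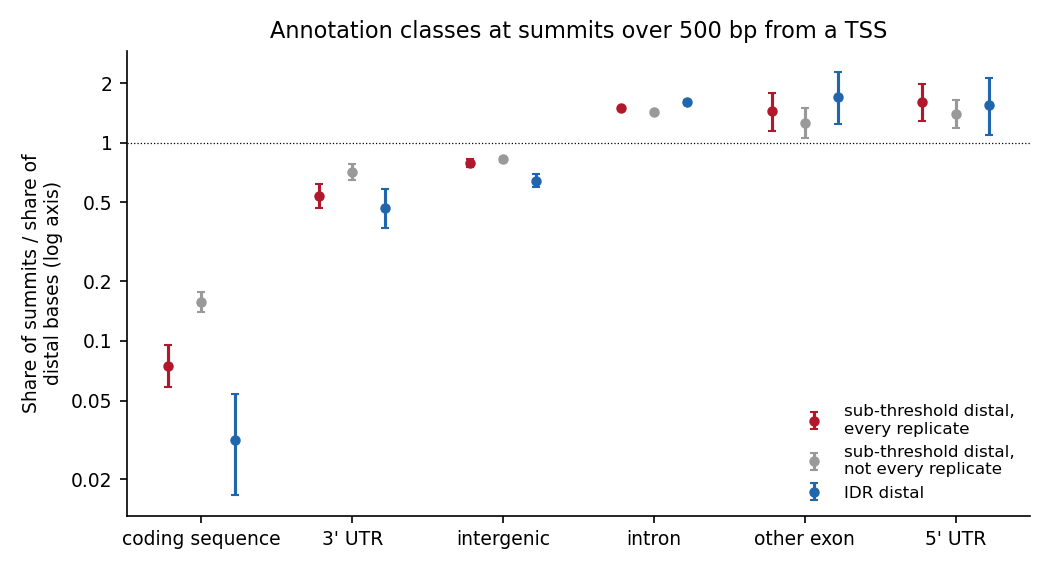
Share of summits in each annotation class divided by the class's share of distal bases (log axis), with exact 95% intervals, for recurrent, non-recurrent and distal IDR peaks. Coding sequence sits at 0.0749 in recurrent, 0.158 in non-recurrent and 0.0315 in distal IDR peaks, and introns sit at 1.49, 1.43 and 1.61.

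Among chromosome arms, 4 of 6 (66.7%) differed from their share of distal bases, 2 higher (33.3%) and 2 lower (33.3%). Arms 2L (1156 peaks, ratio 1.12) and 3L (1381 peaks, 1.09) were higher, with adjusted p of 0.000111 and 0.000714 in the exact binomial test. Arm 2R (967 peaks, 0.864) and the small, mostly heterochromatic chromosome 4 (26 peaks, 0.417) were lower, both with adjusted p of 9.78e-07 in that exact test. Without replicate 2 the ratio of chromosome 4 was 0.680. Arms 3R (0.975) and X (0.994) did not pass. The p-values for arms also count each peak as independent. Annotated transposable elements held 25 peaks (0.417%), whereas they make up 6.73% of distal bases. The low share was not particular to recurrent peaks, at 0.580% of non-recurrent and 0.293% of distal IDR peaks. On 2L, 2R, 3L and chromosome 4 the ratios were 1.12, 0.903, 1.06 and 0.803 in non-recurrent peaks. In distal IDR peaks they were 1.05, 0.944, 0.976 and 0.423, and differences between sets were not tested.

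Distances to start sites varied widely. The median distance to the nearest TSS was 2901.5 bp in recurrent peaks, 3219 bp in non-recurrent and 2207 bp in distal IDR peaks. Of the recurrent peaks, 1016 (17.0%) were within 501 to 1000 bp of a TSS, 1971 (32.9%) farther than 5000 bp and 838 (14.0%) farther than 10000 bp. The nearest IDR summit, of any kind, was a median of 4358 bp away. Within 1000 bp of one were 956 (16.0%), against 9.17% of non-recurrent peaks. Farther than 10000 bp from any were 1854 (30.9%), against 37.8% of non-recurrent peaks, and these differences were not tested. Another recurrent peak lay within 1000 bp of 1454 (24.3%), so neighbouring peaks can share sequence and a gene.

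A family of related short words was more frequent at recurrent summits than nearby. Each window of 100 bp on either side of the summit was compared with a window of equal width centred 500 bp to the lower-coordinate side of the same peak. The odds ratio is the number of peaks with a word in the summit window only, divided by the number with it in the neighbouring window only. Of all 6-base words, with reverse complements joined, 661 (31.8%) differed, 288 higher (13.8%) and 373 lower (17.9%), by the exact McNemar test with adjustment over all of them. These p-values measure the spread over peaks, not over embryos.

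AGTGTA had the highest odds ratio. It was present at 12.9% of recurrent summits against 6.61% of neighbouring windows, with an odds ratio of 2.06 (95% interval 1.81 to 2.34, exact McNemar test, adjusted p = 2.28e-27). With the replicates' own summits it was found at 13.1%, 12.3% and 13.0%, and the odds ratio was 2.10 ± 0.0530 (SD, n = 3). The rule placed those summits within 200 bp of the same pooled summits, so their windows overlap and this SD is a description, not independent support. ACACTG (odds ratio 1.97), GTACAC (1.85), ACAGTG (1.83) and GTGCAC (1.70) followed, then GTATAC (1.65), ACTGTG (1.63), ACTGTA (1.57), AGGGTA (1.57) and GTAAAC (1.56). Several of them overlap: ACACTG, which reads CAGTGT on its other strand, is AGTGTA shifted by 1 base. The Octbeta1R and CG33181 sequences printed above both hold AGTGTA, in Octbeta1R on the other strand. At least 1 of the first 5 was present at 36.1% of recurrent summits against 22.9% of neighbouring windows, and 2 or more at 12.2% against 5.14%. The same share was 29.2% against 23.1% for non-recurrent peaks and 44.6% against 24.9% for distal IDR peaks. Recurrent peaks lay between those sets. The words were picked for their odds ratios in these same windows of recurrent peaks, which can raise the recurrent share relative to the other sets. The shares are thus a description, and the difference between sets was not tested.

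These words did not peak at the summit itself. Steps of 20 bp were used, and each word was placed by its centre. At least 1 of the first 5 words lay 70 bp to the lower side in 5.04% of recurrent peaks and 70 bp to the higher side in 4.92%. The shares were 4.19% and 4.07% in the steps next to the summit, and 2.60% and 2.57% at the ends, 490 bp away. Distal IDR peaks showed 2 higher shoulders, up to 7.62% at 90 bp on the lower side and 7.48% at 70 bp on the higher side, with 4.33% and 3.89% next to the summit. AGTGTA had odds ratios of 1.96 (1.67 to 2.30) in introns and 2.51 (1.94 to 3.29) between genes. In the small classes its intervals included 1, with 1.88 (0.990 to 3.68) in 3' UTRs, 1.5 (0.477 to 5.12) in other exons, 1.00 (0.230 to 4.35) in 5' UTRs and 1.00 (0.0725 to 13.8) in coding sequence, and some of the other leading words were below 1 there, such as ACACTG at 0.667 in 5' UTRs and GTGCAC at 0.143 in coding sequence. By signal, AGTGTA had odds ratios of 1.60, 1.88, 2.89 and 2.08 in the 4 groups from lowest to highest signal.

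**Figure D3:**
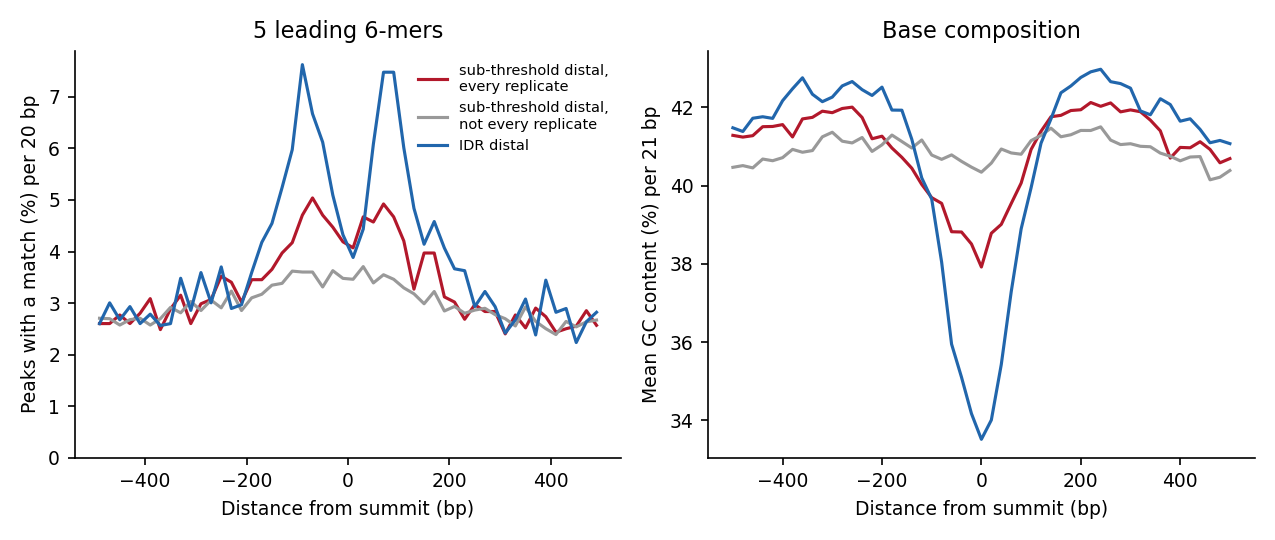
Left, percent of peaks with at least 1 of the 5 leading 6-base words in each step of 20 bp; right, mean GC content (%) in windows of 21 bp, both against distance from the summit (bp), for recurrent, non-recurrent and distal IDR peaks. The words form a shoulder on each side of the recurrent summits (5.04% and 4.92% at 70 bp), and mean GC at the summit is 37.9% in recurrent, 40.3% in non-recurrent and 33.5% in distal IDR peaks, against 41.3%, 40.5% and 41.5% at 500 bp on the lower side.

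Base composition moved with the words. The median GC content was 38.8% at recurrent summits, against 41.3% in the neighbouring windows used as control and 40.8% on the other side. It was 40.8% at non-recurrent and 35.8% at distal IDR summits, and 42.0% over all distal bases. Of the 6-base words that were higher, 29 had no G or C, 117 had 1, 95 had 2, 36 had 3 and 11 had 4. Of those that were lower, 1 had no G or C, 3 had 1, 38 had 2, 113 had 3, 142 had 4, 64 had 5 and 12 had 6. The part of base composition in the word calls was not tested. CCAGGA (odds ratio 0.427), CAGGAC (0.492), GGATCC (0.516), ATCCTC (0.539) and AGGATC (0.540) were the lowest. CCAGGA was present at 2.79% of recurrent summits against 6.26% of neighbouring windows.

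Words of 8 bases, searched after the 6-base words were known, resolved the family further. Of 32896 words, 207 (0.629%) passed the exact McNemar test, 168 higher (0.511%) and 39 lower (0.119%). CAGTGTAC was at 92 recurrent summits against 17 neighbouring windows (odds ratio 5.41, 3.20 to 9.69), and CACTGAGA at 157 against 34 (odds ratio 4.73, 3.23 to 7.11, exact McNemar test, adjusted p = 8.32e-16). TACACTGA (125 against 33), ACACTGAG (122 against 33) and ACTGAGAG (92 against 25) are shifted from CACTGAGA by 1 or 2 bases, and CAGTGTAC read on the other strand runs into the same word. The kirre window printed above carries CACTGAGA on both strands. CACTGAGA was at 162 non-recurrent summits against 60 neighbouring windows (odds ratio 2.82) and at 110 distal IDR summits against 19 (6.06). Among the 10 leading words, AGAGGGTA (41 against 10, odds ratio 4.10) and AGGGTATA (60 against 17, 3.69) hold AGGGTA instead. AGAGGGTA had odds ratios of 1.03 in non-recurrent peaks and 0.714 in distal IDR peaks, and AGGGTATA 1.33 and 2.07. The words were picked on recurrent peaks, and differences between sets were not tested.

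The bases beside the family were also uneven. At 772 AGTGTA matches in recurrent summit windows, T made up 53.9%, 55.3% and 52.1% of the bases 8, 7 and 6 positions before the word, against 36.5%, 28.3% and 32.3% at 381 matches in neighbouring windows. C stood directly before the word in 38.7% of summit matches against 25.2% of neighbouring ones. In the 8 positions after the word at summits the highest share of any base was 35.2%, for A.

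Of 30 consensus motifs of known factors, 10 (33.3%) differed between recurrent summits and neighbouring windows, 5 higher (16.7%) and 5 lower (16.7%). A motif match is a stretch of letters and does not show that the factor was there. The motifs were chosen with earlier results of these data known, so the shares that passed and their p-values are no independent support. The forkhead motif TAAACA was at 25.7% of recurrent summits against 19.96% of neighbouring windows (odds ratio 1.39, 1.27 to 1.52, exact McNemar test, adjusted p = 2.11e-12). The core of Mef2, a factor of muscle differentiation, TATTTNTA, was at 17.1% against 12.7% (odds ratio 1.41, adjusted p = 2.59e-10, exact), and the TATA box TATAAA at 29.4% against 23.5% (1.35, adjusted p = 5.39e-12, exact). GATAA, read by GATA factors of gut, blood and amnioserosa, was at 40.5% against 35.7% (1.23, adjusted p = 2.75e-07, exact), and runs of 7 A at 23.1% against 20.8% (1.14). All 5 are rich in A and T, as the summits are, and the part of composition was not tested.

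Lower at recurrent summits were the CTCF core AGGNGGC (5.82% against 7.88%, odds ratio 0.723, adjusted p = 4.94e-05, exact), the STAT motif TTCNNNGAA (4.94% against 6.41%, 0.764), the Snail-type E-box CAGGTG (5.41% against 6.68%, 0.796), TGGGAA of Suppressor of Hairless (11.6% against 13.9%, 0.817) and GCCAT of Pleiohomeotic (32.2% against 36.1%, 0.840). The STAT call was lost among the 2996 peaks of higher signal (0.792, adjusted p = 0.102, exact) and in windows of 50 bp, the Suppressor of Hairless call against windows 1000 bp away (0.920) and the CAGGTG call in windows of 50 bp (0.919). Without replicate 3, in a larger set of 7958 peaks, 8 motifs were higher.

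The other 20 motifs did not pass. They include TAATTA of homeodomain factors (odds ratio 0.947, 0.853 to 1.05), CAGCTG (0.978, 0.855 to 1.12), an E-box read by neural and muscle bHLH factors, GAGAG of the GAGA factor (1.09, 0.999 to 1.19), ATCGATA of the promoter factor DREF (0.839, 0.659 to 1.07), the Zelda motif CAGGTAG (0.963, 0.645 to 1.44) and ACCGGTT of Grainyhead (0.768, 0.504 to 1.16). The last 3 are rare, at 2.24%, 0.868% and 0.718% of recurrent summits, and their intervals are wide. DREF's motif was at 8.63% of sub-threshold promoter summits found in every replicate against 3.99% of their neighbouring windows (odds ratio 2.24), a set of 3186 peaks chosen by the same replicate rule near TSSs. TAATTA was at 17.3% against 13.2% for distal IDR peaks (1.39).

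The forkhead, Mef2, TATA and GATA odds ratios of recurrent peaks lay between those of the other distal sets. For forkhead they were 1.39 in recurrent, 1.12 in non-recurrent and 1.96 in distal IDR peaks. For the TATA box they were 1.35, 1.07 and 1.94, for Mef2 1.41, 1.06 and 1.67, and for GATA 1.23, 1.07 and 1.46, in the same order of sets. The CTCF core, at 0.723, 0.995 and 0.528, was again intermediate in recurrent peaks. Differences between sets were not tested. Within recurrent peaks the forkhead odds ratio was 1.17, 1.27, 1.66 and 1.49 in the same 4 signal groups. In introns it was 1.44 (1.29 to 1.60) and between genes 1.18 (0.988 to 1.40), and that of GATA was 1.28 (1.17 to 1.40) in introns and 1.05 (0.901 to 1.23) between genes, whereas Mef2 had 1.44 and 1.51 and the TATA box 1.34 and 1.43.

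**Figure D4:**
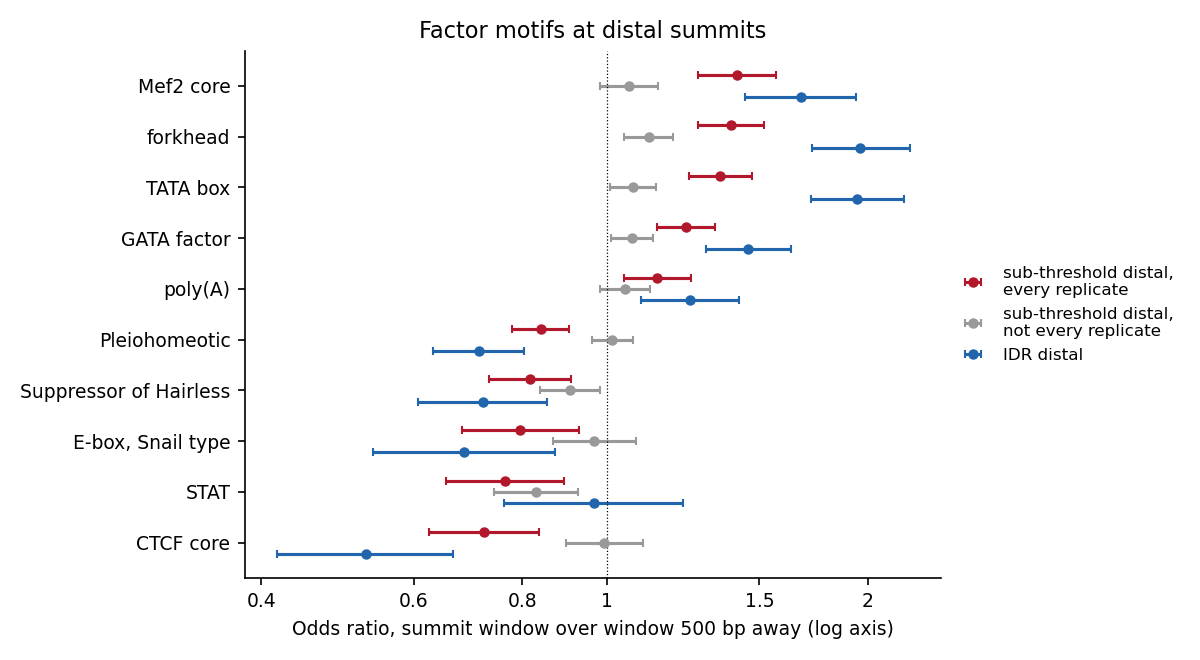
Odds ratio (log axis) of the 10 motifs that passed at recurrent summits, summit window over neighbouring window, with exact 95% intervals, for recurrent, non-recurrent and distal IDR peaks. Forkhead is at 1.39, 1.12 and 1.96 and the CTCF core at 0.723, 0.995 and 0.528 in those 3 sets.

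Recurrent peaks were assigned to a minority of protein-coding genes, several to some of them. A peak was assigned to the protein-coding gene whose span holds its summit, or otherwise to the gene of the nearest protein-coding TSS. In all, 4362 (72.8%) lay inside a gene span, and 2498 of 13945 protein-coding genes (17.9%) had at least 1, 325 at least 5 and 68 at least 10. Genes with a recurrent peak had a median span of 9.75 kb, against 2.17 kb for all protein-coding genes. A longer gene holds more distal bases, so a longer span goes with the rule itself, and counts per gene were not compared with those of non-recurrent peaks. A distal IDR peak was also assigned to 1086 of them, which is 43.5% of the 2498 and 69.0% of the 1573 genes with a distal IDR peak. Over all distal bases there were 5.18 recurrent peaks per 100 kb.

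The gene with most recurrent peaks was bun, which encodes TSC22-family growth regulators, with 30, of which 28 lay inside its 91.1 kb, or 30.7 per 100 kb. The adhesion gene kirre had 28 in 394.1 kb, or 7.10 per 100 kb, nearer to the 5.18 over all distal bases. Eip75B, a nuclear receptor gene induced by ecdysone, had 25, with 21 inside, and chinmo, which encodes a BTB zinc-finger protein of neuronal temporal identity, had 20, with 16 inside its 53.4 kb. CG46467 and Glut4EF, which overlap, had 21 and 20 and share many of them. The remaining genes of the first 10 were sick (19), shep, an RNA-binding protein gene (18), fz2, a Wnt receptor gene (17), and px (17). Distal IDR peaks numbered 10 in bun, 7 in kirre, 6 in Eip75B, 10 in chinmo and 1 in fz2.

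**Figure D5:**
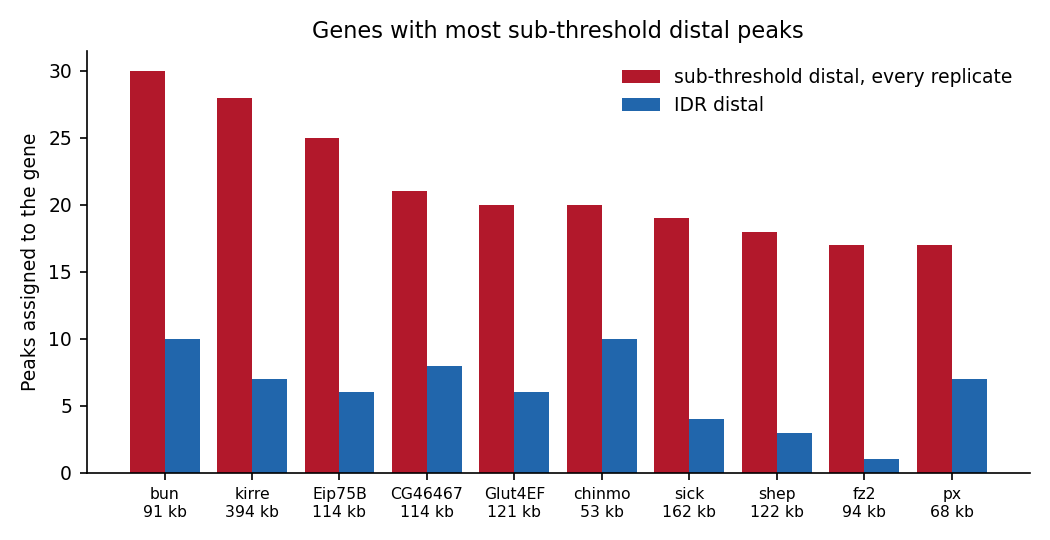
Number of recurrent peaks and of distal IDR peaks assigned to each of the 10 genes with most recurrent peaks, with the gene's span in kb under its name. bun has 30 recurrent and 10 distal IDR peaks, and fz2 has 17 and 1.

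Among lists of genes with known roles, signalling and ecdysone genes carried recurrent peaks often and short gene families rarely. The share of genes with at least 1 was 10 of 12 for EGFR and Ras signalling, 10 of 13 for gut and GATA factors, 13 of 17 for ecdysone response, 6 of 8 for Hox genes, 11 of 16 for trachea and epidermis, and 17 of 29 for Wnt, Hedgehog and BMP signalling, against 17.9% of all protein-coding genes. It was 19 of 37 for proneural and neuronal genes, 9 of 18 for the Notch pathway, 5 of 10 for glia, 10 of 25 for segmentation and 10 of 26 for muscle and mesoderm. It was 7 of 88 (7.95%) for cytoplasmic ribosomal proteins, 10 of 95 (10.5%) for cuticle proteins and 17 of 179 (9.50%) for chemoreceptors. The median gene span was 39.9 kb for the ecdysone list, 19.5 kb for the EGFR list and 30.6 kb for Hox genes, against 1.33 kb for ribosomal proteins, 0.875 kb for cuticle proteins and 1.69 kb for chemoreceptors. Gene length moved with these shares, and its part was not tested. The lists were also chosen with earlier results of these data known.

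In the EGFR and Ras list, pnt, an ETS activator gene, had 12 recurrent peaks, the pathway inhibitor gene sty 9, and the receptor gene Egfr, its ligand gene vn and the repressor gene aop 5 each. The 2 peaks of highest signal of that list were in introns of aop, and the stronger (2L, 2165812 to 2166251) had a signal of 175.7 and ranks of 9695, 7460 and 4909 in replicates 1, 2 and 3. In the ecdysone list, EcR, the receptor itself, had 14 recurrent peaks and 1 distal IDR peak, Eip74EF had 7 and ftz-f1 had 5. The strongest in EcR (2R, 6102202 to 6102641) had ranks of 15745, 4310 and 6509. Among Wnt, Hedgehog and BMP genes, the receptor genes fz2 and fz had 17 and 14, the Wnt antagonist gene nkd 10, the BMP receptor gene tkv 8, and the ligand genes wg, hh and dpp 2 each. A peak in nkd (3L, 19015449 to 19015888) ranked 6686, 5835 and 8983.

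The Hox, neuronal, gut, muscle and tracheal lists each included genes with recurrent peaks. A peak in an intron of Ubx (3R, 16704179 to 16704618, signal 185.7) lay 30027 bp downstream of the nearest protein-coding TSS, its own, and 52096 bp from the nearest IDR summit, and ranked 7010, 5382 and 7132 in replicates 1, 2 and 3. Antp had 6 recurrent peaks, Dfd 4 and Ubx 3. The 3 replicates placed the Lim1 peak (X, 8777069 to 8777508, sequence above) at 6999, 7683 and 5868, and an IDR summit was 56921 bp away. Neuronal genes with several were hth (16), Lim1 (5), ChAT, which encodes choline acetyltransferase (5), tup (4), and Syt1, VGlut, para, Sh and zfh1 (3 each). Genes of that list with no recurrent peak included ac, sc, l(1)sc, ase, ato, amos, cato, dpn, wor and brp. Lim1, ChAT, tup, Syt1, VGlut and para had no distal IDR peak, whereas hth had 6, Sh 3 and zfh1 2. Over all 2498 genes with a recurrent peak, only 1086 (43.5%) had a distal IDR peak, so lacking one is common. Of the gut list, ush had 8, the GATA factor genes srp, grn and GATAe had 4, 3 and 2, and fkh, the founding forkhead gene, 3. Muscle genes included rols (6), Mef2 (5) and how (3) besides kirre, and tracheal genes sty (9), vvl (7) and ttk (6). Among genes with no recurrent peak were pnr and GATAd of the gut list, sls, Mhc, sns, tin and bap of the muscle list, and btl, esg and tgo of the tracheal list.

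In the Notch list, mam, the gene of a Notch co-activator, had 9 recurrent and 8 distal IDR peaks. The gene of a Notch inhibitor, numb, had 5 recurrent and no distal IDR peaks, and most genes with a recurrent peak likewise lacked a distal IDR peak. A numb intron peak (2L, 9459309 to 9459748) ranked 9256, 11135 and 5126. Among 3 PR domain genes found in the annotation, ham had 1 recurrent peak (2L, 18781441 to 18781880, ranks 8152, 14156 and 18393). Of 12 insulator and promoter factor genes 3 had any, namely Trl, which encodes the GAGA factor (2), mod(mdg4) (1) and Abd-B (1), the last listed for its insulator elements.

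The gene of the tagged protein itself, Prdm13 (FBgn0035687, 3L, 6163127 to 6164682), was assigned no recurrent peak. The nearest was 2953 bp away, with a pooled signal of 149.9, a pooled rank of 7706 and Cpr65Az, a cuticle protein gene, as the gene of its nearest TSS.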

How the data were processed

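The 3 lists of relaxed peaks, 1 per replicate, a pooled list and the IDR set were used as deposited by the authors on dm6, per the file headers and labels. Peaks were ranked by the signal value the authors gave them, always inside a single list. The −log10 q-value of each peak, as deposited, served as a description only. The peak caller, aligner, depth and IDR threshold are not given in the sources used here. Sub-threshold peaks were pooled peaks with no IDR row of equal coordinates and summit. Genes came from Ensembl 115 (BDGP 6.54, 18164 genes, 23581 TSS positions, without transposable elements) and sequence from the RefSeq release 6 genome. Two-sided exact McNemar tests compared summit with neighbouring windows over 30 motifs, all 6-base words and 32896 8-base words, the last added after seeing the data, and two-sided exact binomial tests compared 6 classes and 6 arms with distal bases. Benjamini-Hochberg adjustment was applied per family, at 0.05, and intervals are exact at 95%, for counting error only. The tests were checked on simulated data, with independent peaks and the same base composition in summit and neighbouring windows. That check does not cover the lower GC content of the real summits or peaks that lie close together. No sequence from arm 2R is printed. Members, lists and motifs were chosen with earlier results of these data known. Named were the 10 strongest peaks, the 5 weakest, the 5 of best worst replicate rank, those next to thresholds, up to 3 per gene list, the 10 genes with most peaks, 10 higher and 5 lower 6-base words with at least 50 discordant peaks, and each motif that passed. Statistics were computed with scipy 1.17.1 and numpy 2.4.6 under Python 3.11.15, with tables in pandas 2.3.3 and figures in matplotlib 3.10.9.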

Additional observations from a re-analysis of the deposited data

How the results depend on the processing

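No paired analysis was possible because there was 1 group. Leaving out replicates kept the peaks found in both others, which makes larger sets of 7718 to 8765 peaks: these gave 12 to 15 motifs (6 to 8 higher, 6 to 7 lower), 477 to 726 6-base words (213 to 296 higher, 264 to 430 lower), 6 classes (3 higher and 3 lower each time) and 4 to 5 arms (2 higher, 2 to 3 lower). The 8 higher motifs were found without replicate 3. The number of recurrent peaks was 3749 with summits within 100 bp and 2996 among those above the median signal. At 1000 bp from every TSS 1 class was higher. With 1 peak per 1000 bp 8 motifs were lower. In windows of 50 bp 426 6-base words differed, 231 of them lower. Neighbouring windows on the higher side or 1000 bp away, windows without coding bases, and peaks farther than 1000 bp from any IDR summit gave counts within 1.5 times those reported. No result changed direction among those that passed. Counted once per setting, 6 motif calls, 4 class calls and 1 call of a named 6-base word were lost. In the same count 30 motif calls and 1 arm call were gained. The cause of these changes was not tested, beyond the smaller or larger sets and windows themselves. Leaving out summits that replicates share with other peaks, and leaving out transposable elements, were added after seeing the data and kept the counts of classes and arms. Depth is unknown, so a replicate without a summit may lack reads there.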
